A study of Mus musculus with 35 samples.

Results

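Rhox genes are X-linked homeobox genes of the reproductive tissues, and 4 of them were named for this description: Rhox2a, Rhox5, Rhox6 and Rhox9. They were chosen by symbol from a table of 26127 gene rows, with results of the same libraries already known. A row was found for 3 of the 4, and Rhox5 was not analysed here. Rhox6 and Rhox9 resemble each other in sequence, so their sum is given as well. Since the difference between Dnmt1 knockout (KO) and control (WT) cells chose these genes, that difference is described below and not tested.

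The libraries hold total RNA, depleted of ribosomal RNA, from mouse embryonic stem cells (ESCs) whose background strain the labels give as E14. In the study's methods the same cells are C57BL/6 ESCs with both Dnmt1 alleles flanked by loxP sites, which Cre recombinase removes after tamoxifen is added. Dnmt1 is the methyltransferase that copies DNA methylation onto the new strand at replication. There were 17 libraries labelled wild type and 17 labelled Dnmt1 KO over days 0, 1, 3, 6, 9, 11, 17 and 25, with 2 of each at every day and 3 of each at day 1, and 1 library labelled Dicer KO. The methods describe the Dicer KO cells as grown from single colonies of the same loxP line after CRISPR/Cas9 targeting, so that this library may stand for 1 clone with intact Dnmt1. Cells were grown in serum with LIF, with or without feeder cells. The labels do not say which libraries came from separate cultures, so the p-values below measure the spread between libraries, which may be technical.

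The Rhox cluster encodes homeodomain proteins that bind DNA, and its genes are expressed mainly in testis, epididymis, ovary and placenta. Rhox6 and Rhox9 were first described as placental homeobox genes and are also known from the female germ line, whereas Rhox2a belongs to a block of duplicated genes expressed in the testis. Several Rhox genes are known to be silenced by DNA methylation in cells of the embryo proper.

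Levels are RPKM, reads per kilobase of exon and per M (mega) reads of the library, so that genes can be compared per length. Libraries held between 24.3 and 72.1 M reads. Gene exons took 20.7% to 22.4% of these reads in the 20 libraries of days 0, 3, 6 and 9 and of the first 2 pairs of day 1. They took 44.7% to 49.9% in the other 15, namely the third pair of day 1, all of days 11, 17 and 25, and Dicer KO. They are called low-share and high-share libraries, and levels are ranked only within each set. Dnmt1 RNA lay between 14.1 and 34.8 RPKM in WT and between 2.58 and 4.40 RPKM in KO at days 3, 9, 11, 17 and 25. At day 6 the libraries labelled WT had 3.22 and 3.40 RPKM of Dnmt1 and those labelled KO 20.2 and 20.4 RPKM, which goes against their labels. The labels were kept, day 6 was left out of the mean over days, and its libraries are written of as labelled. The stem cell markers Pou5f1, Sox2 and Nanog were present in all groups, and the summed level of 10 such markers was between 720 and 1940 RPKM in WT and between 667 and 1751 RPKM in KO libraries outside day 6.

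Rhox6 (ENSMUSG00000006200.3) lies on chromosome X of NCBIM37, chrX:35180087-35183034 on the plus strand, and Rhox9 (ENSMUSG00000068048.7) at chrX:35252274-35255044 on the minus strand. Both have 684 coding bases, of which 620 are identical (90.6%). The stretch of 120 coding bases in which they differ most is shown because reads from such stretches tell the genes apart. It covers coding bases 343 to 462, which is chrX:35180803-35180922 in Rhox6 and chrX:35254209-35254328 in Rhox9, within exons of both genes. Each is written 5′ to 3′ on the coding strand of the NCBIM37 reference, and capitals mark the 24 bases that differ.
Rhox6: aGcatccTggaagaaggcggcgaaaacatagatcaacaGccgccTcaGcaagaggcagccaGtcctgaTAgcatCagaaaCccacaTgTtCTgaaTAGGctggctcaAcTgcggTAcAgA
Rhox9: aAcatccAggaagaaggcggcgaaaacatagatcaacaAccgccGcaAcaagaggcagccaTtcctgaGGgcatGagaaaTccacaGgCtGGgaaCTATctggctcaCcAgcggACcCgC
Their longest identical coding run had 161 bases, and it was the only one as long as a read of 100 bases. Of all stretches of 100 exonic bases, 76.6% of Rhox6 and 73.9% of Rhox9 occurred once on chromosome X. Reads of low mapping quality had been discarded, so the values below rest on reads that mapped with quality of 20 or more, and reads from shared stretches may be missing from both genes.

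Rhox6 RNA was higher in KO than in WT from day 3 on, except among the libraries of day 6. At day 0 it had 0.281 and 0.465 RPKM in WT and 0.219 and 0.284 RPKM in KO. At day 1 the low-share libraries had 0.215 and 0.208 RPKM in WT and 0.193 and 0.196 RPKM in KO, and the third WT library had 0.776 RPKM and the third KO library 0.885 RPKM. The genotypes overlapped at both days, and among the low-share libraries of day 1 both KO libraries lay just below both WT libraries. Dnmt1 was not yet lower at day 0, with 18.5 to 18.7 RPKM in the libraries labelled KO and 18.3 to 18.4 RPKM in WT. At day 1 the KO libraries had 2.86 to 8.13 RPKM of Dnmt1, against 17.9 to 19.5 RPKM in WT.

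At day 3 Rhox6 had 0.536 and 0.483 RPKM in WT and 3.1 and 3.22 RPKM in KO. At day 9 it had 0.322 and 0.407 RPKM in WT and 3.93 and 4.14 RPKM in KO. The KO libraries of both days lay above all WT libraries of the low-share set outside day 6. At day 11 Rhox6 had 1.1 and 1.52 RPKM in WT and 27.6 and 20.4 RPKM in KO. At day 17, its highest point, it had 2.91 and 2.66 RPKM in WT and 41.3 and 40.3 RPKM in KO. At day 25 it was back at 0.560 and 0.803 RPKM in WT and 5.92 and 6.01 RPKM in KO. Every KO library thus lay above both WT libraries at each of these 5 days. Over all genes tested this order held for 34.9% at day 3, 39.1% at day 9, 31.9% at day 11, 42.6% at day 17 and 49.5% at day 25. The mean in KO was 6.2-fold that in WT at day 3, 18.4-fold at day 11, 14.7-fold at day 17 and 8.75-fold at day 25, and at day 9 the log2(RPKM + 0.1) difference was 3.16.

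Rhox9 had lower levels per length than Rhox6 in every library, and like Rhox6 it was highest in KO at day 17 and next at day 11. The exon lengths behind these levels were 2585 bases for Rhox9 and 1010 bases for Rhox6. Over days 3, 9, 11, 17 and 25 KO libraries had 3843 reads of Rhox9 and 4915 of Rhox6. The lower RPKM of Rhox9 thus partly reflects its annotated length, and a sum of RPKM weighs a read of Rhox6 more. At day 0 Rhox9 had 0.0732 and 0.140 RPKM in WT and 0.124 and 0.148 RPKM in KO. At day 1 it had 0.0906, 0.104 and 0.343 RPKM in WT and 0.140, 0.153 and 0.167 RPKM in KO, and the genotypes overlapped at both days. Among the low-share libraries of day 1 both KO libraries lay above both WT libraries, unlike for Rhox6. These low-share libraries had 13 and 14 reads of Rhox9 in KO and 14 and 9 in WT. At day 3 Rhox9 had 0.137 and 0.178 RPKM in WT and 0.929 and 0.963 RPKM in KO. At day 9 it had 0.0711 and 0.127 RPKM in WT and 1.22 and 1.37 RPKM in KO. At both days the KO libraries lay above every WT library of the low-share set outside day 6. At day 11 Rhox9 had 0.642 and 0.492 RPKM in WT and 9.35 and 6.86 RPKM in KO. At day 17 it had 0.901 and 1.03 RPKM in WT and 11.6 and 12.8 RPKM in KO. The day 25 values were 0.129 and 0.128 RPKM in WT and 1.40 and 1.14 RPKM in KO. The KO means were 6-fold those of WT at day 3, 13.1-fold at day 9, 14.3-fold at day 11, 12.7-fold at day 17 and 9.88-fold at day 25.

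The summed level of Rhox6 and Rhox9 was likewise higher in KO. It had 4.03 and 4.18 RPKM in KO and 0.673 and 0.661 RPKM in WT at day 3, and 52.9 and 53.1 RPKM in KO and 3.81 and 3.68 RPKM in WT at day 17. On the log2(RPKM + 0.1) scale, which understates differences of low genes, the mean difference over days 3, 9, 11, 17 and 25 was 3.31 for the sum, 3.30 for Rhox6 and 2.91 for Rhox9. KO libraries of all 5 days lay above the WT libraries of their day for both genes. Of all 11615 genes tested, 7.98% had this order, and nothing is read from the members' count, which the choice of genes fixes. In bulk RNA, more cells expressing a gene and more RNA per expressing cell cannot be told apart.

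**Figure D1:**
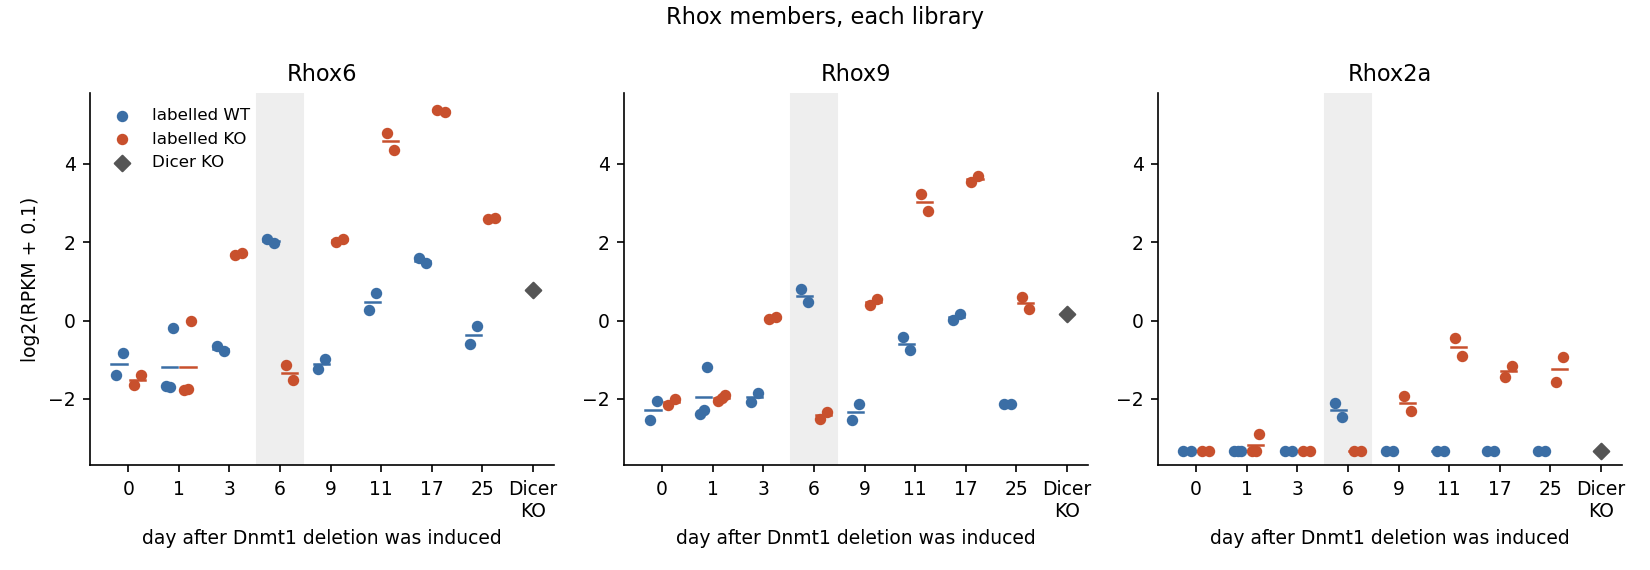
RNA level of Rhox6, Rhox9 and Rhox2a in each library, as log2(RPKM + 0.1), by day; points are libraries, short lines the mean of a group, and the shaded day 6 has labels that Dnmt1 contradicts. KO libraries of Rhox6 and Rhox9 lie above WT from day 3, except at day 6, and are highest at day 17, with 41.3 and 40.3 RPKM for Rhox6, while Rhox2a has no read in WT outside day 6.

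Among the high-share libraries the order of Rhox6 means was KO day 17 (40.8 ± 0.741 RPKM, SD, n = 2), KO day 11 (24 ± 5.11 RPKM, SD, n = 2), KO day 25 (5.97 ± 0.0621 RPKM, SD, n = 2), WT day 17 (2.78 ± 0.178 RPKM, SD, n = 2) and WT day 11 (1.31 ± 0.298 RPKM, SD, n = 2). The ranges of these neighbours did not overlap. WT day 25 came last (0.682 ± 0.171 RPKM, SD, n = 2) and its range covered the third WT library of day 1. For Rhox9 the same 5 groups had the same order, again with no overlap between neighbours. The Dicer KO library came between KO day 25 and WT day 17, with a value inside the WT range of day 17.

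Among the low-share libraries KO day 9 and the day 6 libraries labelled WT overlapped at the top for both genes, and KO day 3 came next without overlap. Below these, WT day 3 had 0.510 ± 0.0380 RPKM of Rhox6 (SD, n = 2) and was the highest of the remaining groups. WT day 0, WT day 9, the day 6 libraries labelled KO and KO day 0 followed, and each overlapped its neighbour. For Rhox9 all 7 groups below KO day 3 overlapped their neighbours.

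The level of both genes also differed between days in WT. Between days 17 and 25, which are both high-share, the mean of Rhox6 in KO was 0.146 times and in WT 0.245 times that of day 17. The mean of Rhox9 was 0.104 times in KO and 0.133 times in WT. Between days 11 and 17 the ratio for Rhox6 was 1.70 in KO and 2.13 in WT. Levels of days 9 and 11 come from different sets. The ratio of Rhox6 in KO between them was 5.95 per library read and 2.73 per read in genes.

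At day 6 the order was the opposite of the other days. The libraries labelled WT had 4.13 and 3.83 RPKM of Rhox6 and 1.64 and 1.28 RPKM of Rhox9. Those labelled KO had 0.351 and 0.248 RPKM of Rhox6 and 0.0763 and 0.0968 RPKM of Rhox9. Both libraries labelled KO lay below both labelled WT, as they did for 41.2% of all genes tested. The log2 difference between libraries labelled KO and WT was -3.36 for Rhox6, -3.06 for Rhox9 and -3.51 for the sum. Over all genes, 7.10% combined this order with KO above WT at every other day from day 3. The libraries labelled WT overlapped those of KO at day 9 for both genes, and Dnmt1 was low in the same 2 libraries.

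The division of reads between Rhox6 and Rhox9 was compared between genotypes. Rhox6 took 4915 of 8758 reads in KO at days 3, 9, 11, 17 and 25, which is 56.1% (exact 95% interval 55.1% to 57.2%), and 378 of 703 reads in WT, which is 53.8% (50.0% to 57.5%). These intervals overlap, and they account for counting alone, as no molecular identifiers were read. Per length the ratio of Rhox6 to Rhox9 in single KO libraries of these days was between 2.95 and 5.29. In KO the share was 53.6% and 53.7% at day 11. It was 58.3% and 55.1% at day 17, and the day 25 libraries had 62.2% and 67.4%. The KO intervals of day 25 were 56.3% to 67.9% and 61.5% to 72.9%. They lay above those of day 11 (51.1% to 56.0% and 50.8% to 56.6%) except for an overlap of the first with the second. WT went the same way, with 63% and 71% in its day 25 libraries, from 27 and 31 reads. Its day 11 libraries had 40% and 54.6%, and its day 17 libraries 55.8% and 50.3%. The WT intervals of day 25 were wide (42.4% to 80.6% and 52% to 85.8%). They overlapped those of days 11 and 17, except the second with the first of day 11. Whether the change between days differed by genotype was not tested. The Dicer KO library had 42 of 110 reads in Rhox6, or 38.2% (29.1% to 47.9%), below the interval of the pooled WT reads of these 5 days. It overlapped the interval of WT at days 0 and 1 (42.3% to 59.0%) and that of the first WT library of day 11 (40%, 29.8% to 50.9%).

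**Figure D2:**
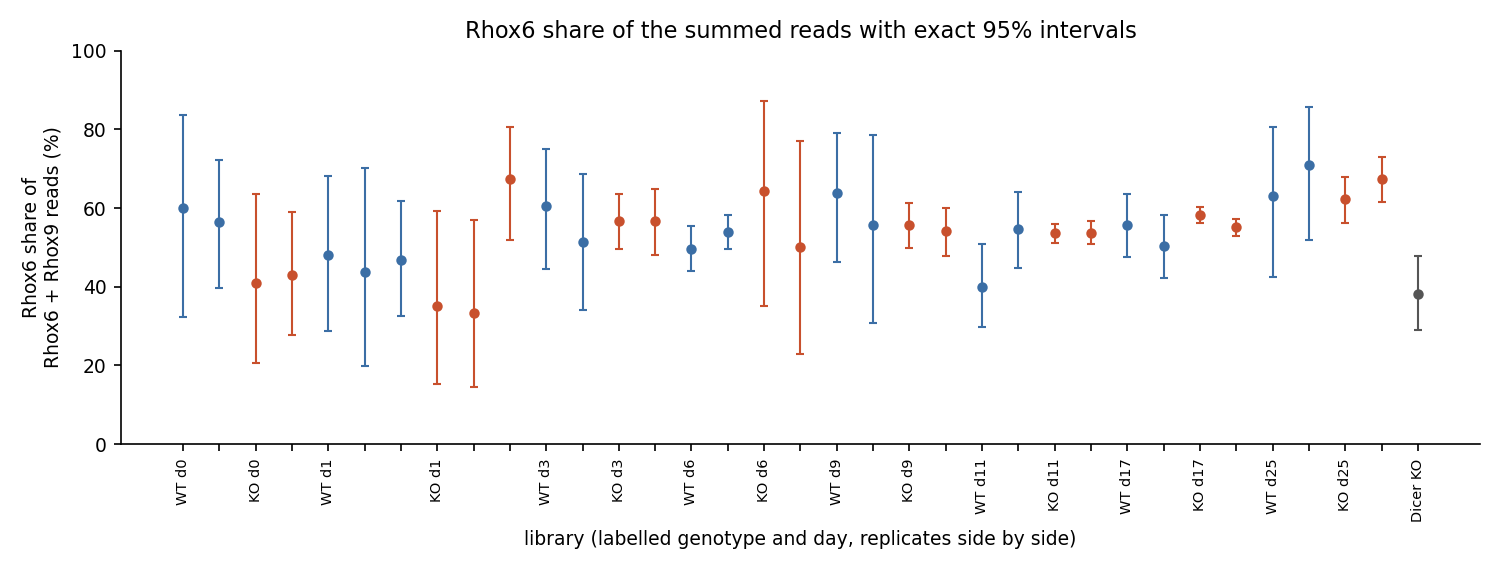
Share of Rhox6 in the reads of Rhox6 and Rhox9 in each library (percent), with exact 95% binomial intervals as bars and replicates side by side; blue is labelled WT, orange labelled KO and grey Dicer KO. KO libraries from day 3, day 6 aside, lie between 53.6% and 67.4%, and the Dicer KO library at 38.2%; WT libraries have few reads and wide intervals.

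Rhox2a (ENSMUSG00000051827.5, chrX:34784971-34789683, plus strand, NCBIM37) was a low gene that was read almost only in KO. It stayed below 1 RPKM in all libraries, so it did not pass the filter of the test. WT libraries had 0 reads at days 0, 1, 3, 9, 11, 17 and 25, and so did KO at days 0 and 3. In KO, 1 read came from the third library of day 1. At day 9 KO had 6 and 3 reads (0.165 and 0.102 RPKM), at day 11 17 and 11 reads (0.639 and 0.429 RPKM), at day 17 7 and 9 reads (0.267 and 0.348 RPKM) and at day 25 6 and 11 reads (0.238 and 0.424 RPKM). The libraries labelled WT at day 6 had 4 and 5 reads and those labelled KO had 0.

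A level of 3 reads over the 2 WT libraries of a day was taken as the floor. Against it Rhox2a was at least 3.65-fold higher in KO at day 9, at least 10.7-fold at day 11, at least 5.15-fold at day 17 and at least 5.36-fold at day 25. At day 3, where Rhox6 and Rhox9 were already higher in KO, Rhox2a had no read in 62 M reads of the 2 KO libraries, in which 3 reads would be 0.0572 RPKM. The KO level at day 9, over both libraries, was 0.136 RPKM, above that floor. A smaller difference at day 3 was not detectable at this depth. Its coding sequence was between 94.4% and 99.7% identical to those of Rhox2b to Rhox2h, and 21.2% of its exonic stretches of 100 bases occurred once on chromosome X. Its reads are therefore an uncertain part of those from the Rhox2 copies.

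The table held 27 further Rhox rows, and the cluster from Rhox1 to Rhox13 spans 729 kb (chrX:34753799-35483143, NCBIM37). The rows that passed the filter on low values (RPKM above 1 in at least 2 of 34 libraries), Rhox1, Rhox10 and Rhox13, passed it only through KO libraries, so neither their number nor a test behind that filter supports anything. The p-values given for them are from a fit of all 22909 rows with a read in any library. It called 14.1% of these rows higher and 4.85% lower in KO over days 3, 9, 11, 17 and 25. These genes were still picked by the filter from the same libraries, so their p-values are a description and not support. Elsewhere the test was limma on log2(RPKM + 0.1) over all 34 libraries with Benjamini-Hochberg adjustment over 11615 genes. Over days 3, 9, 11, 17 and 25 this fit called 13.2% of the genes tested higher and 5.75% lower in KO, which is 1528 and 668 genes. With each library centred on its median these were 2031 and 2248 genes. In 24 further rows the highest level was 0.386 RPKM.

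Rhox1, the first gene of the cluster, rose in KO. It had 0.0348 and 0.118 RPKM in WT and 2.88 and 2.21 RPKM in KO at day 11, and 0.0382 and 0.0380 RPKM in WT and 2.67 and 3.08 RPKM in KO at day 17. At day 25 it had 0.151 and 0.167 RPKM in WT and 1.52 and 1.07 RPKM in KO. Its log2 difference over the 5 days was 2.79 (SE 0.139, limma adjusted p 2.129e-12). By day it was 1.06 at day 3, 2.13 at day 9, 3.94 at day 11, 4.43 at day 17 and 2.41 at day 25. As with Rhox6 and Rhox9, the KO level was highest at days 11 and 17.

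Rhox10 and Rhox13, at the other end of the cluster, also rose in KO, with their highest levels at day 25. Rhox10 had 0.508 and 0.0351 RPKM in KO at day 11, 0.241 and 0.244 RPKM at day 17 and 1.54 and 1.04 RPKM at day 25, against at most 0.109 RPKM in any WT library outside day 6. Rhox13 had 1.71 and 0.717 RPKM in KO at day 11, 1.11 and 0.972 RPKM at day 17 and 3.46 and 3.02 RPKM at day 25, against at most 0.307 RPKM in WT outside day 6. For both genes the day 25 KO libraries lay above those of day 17, which is the reverse of Rhox1, Rhox6 and Rhox9. The difference between these time courses was not tested. Over the 5 days the log2 difference was 1.40 for Rhox10 (SE 0.214, limma adjusted p 4.704e-05) and 2.12 for Rhox13 (SE 0.214, limma adjusted p 2.089e-07). At day 25 it was 3.32 for Rhox10 and 4.26 for Rhox13, and at day 11 it was 1.31 and 2.87.

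**Figure D3:**
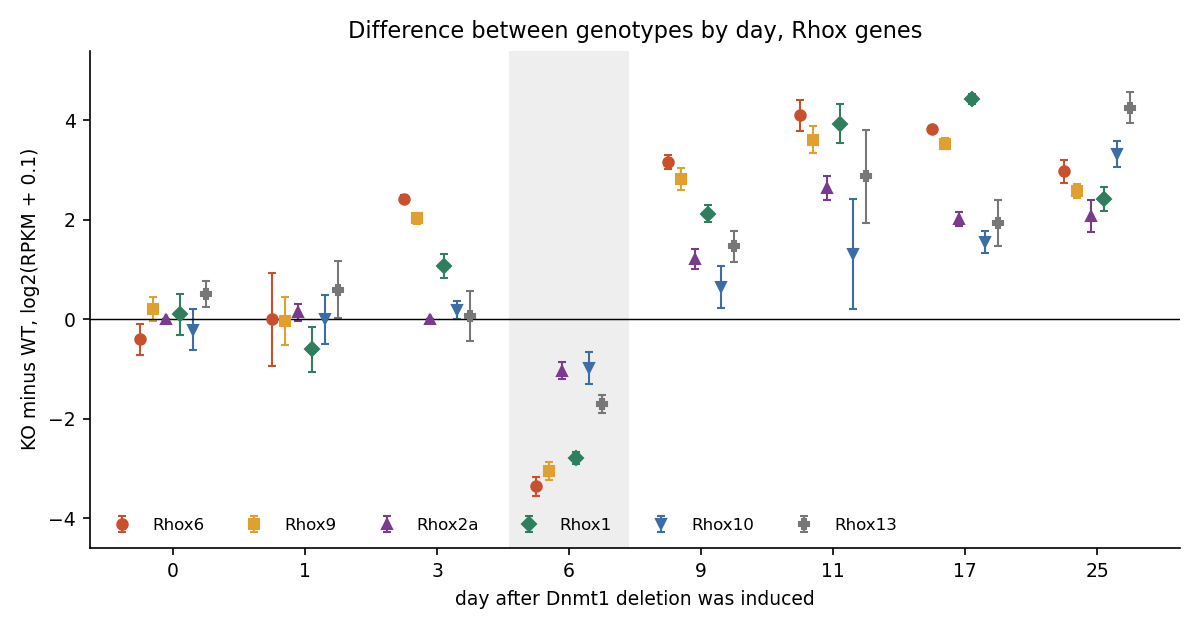
KO minus WT at each day on the log2(RPKM + 0.1) scale for Rhox2a, Rhox6, Rhox9, Rhox1, Rhox10 and Rhox13; bars are the SD of the libraries pooled over both genotypes, and day 6 is shaded. Rhox6 and Rhox9 stand at 2.42 and 2.03 at day 3 and are below 0 only at day 6 among the days from 3 on, and Rhox10 and Rhox13 are highest at day 25, at 3.32 and 4.26.

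The Rhox rows below the filter held few reads, and these came mostly from KO. How reads of other genes below the filter divide between genotypes was not computed, so nothing is read from these counts. The 20 copies of Rhox2, Rhox3 and Rhox4 other than Rhox2a had 65 reads in KO and 2 in WT over the 5 days, and 7 of these rows had no read in any library. The 7 other Rhox2 rows took 37 of the KO reads and 0 of the WT reads. Rhox7, Rhox8, Rhox11 and Rhox12 had 27 reads in KO and 0 in WT, of which 17 were of Rhox12. At day 6 the libraries labelled WT had 9 reads of the 24 rows and those labelled KO had 0. Between 7.49% and 91.1% of the exonic stretches of the Rhox2, Rhox3 and Rhox4 copies occurred once on chromosome X, so the reads of single copies are uncertain.

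The bases before the start of Rhox2a, Rhox1 and Rhox10 are shown because DNA methylation acts on CG, and these 3 differ in how many they hold. Each sequence is the 250 bases upstream of the annotated start in RefSeq (GRCm38.p6), written 5′ to 3′ on the strand of the gene, and capitals mark each CG. The window of Rhox2a is chrX:37244742-37244991 on the plus strand, that of Rhox1 chrX:37222259-37222508 on the minus strand and that of Rhox10 chrX:38066225-38066474 on the plus strand.
Rhox2a: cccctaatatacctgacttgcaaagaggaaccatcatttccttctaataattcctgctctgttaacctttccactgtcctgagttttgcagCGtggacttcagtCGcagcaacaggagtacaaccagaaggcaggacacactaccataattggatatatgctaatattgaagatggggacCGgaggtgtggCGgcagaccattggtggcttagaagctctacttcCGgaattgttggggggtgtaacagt
Rhox1: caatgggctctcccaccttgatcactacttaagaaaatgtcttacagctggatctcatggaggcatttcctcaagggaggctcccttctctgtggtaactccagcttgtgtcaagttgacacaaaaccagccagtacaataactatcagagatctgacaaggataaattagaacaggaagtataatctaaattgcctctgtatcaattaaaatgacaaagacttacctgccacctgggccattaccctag
Rhox10: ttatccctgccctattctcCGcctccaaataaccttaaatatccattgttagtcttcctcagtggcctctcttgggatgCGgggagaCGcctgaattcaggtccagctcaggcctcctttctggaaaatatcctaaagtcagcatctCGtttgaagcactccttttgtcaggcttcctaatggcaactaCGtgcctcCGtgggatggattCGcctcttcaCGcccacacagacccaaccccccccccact
Rhox2a held 5 CG, Rhox1 held 0, Rhox10 held 8 and Rhox13 held 4. The motif searched was CG, which reads the same on both strands and cannot overlap itself, and 92.1% of 32851 such windows of all genes held at least 1. The 27 windows of Rhox genes held between 0 and 8 CG with a median of 4, against a median of 6 and quartiles of 2 and 16 over all windows. Over the 5 days the log2 difference was 2.79 for Rhox1, 2.12 for Rhox13, 1.59 for Rhox2a and 1.40 for Rhox10, so these 4 genes stood in the reverse order of their CG counts. With 4 genes this is a description, the order is not firm, and no relation is read from it. Leaving out 1 library at a time gave 1.53 to 1.65 for Rhox2a and 1.19 to 1.62 for Rhox10. The value of Rhox2a was 3.91 with a pseudocount of 0.01 and 0.32 with a pseudocount of 1. RefSeq entries for these windows were matched by symbol for 1 of the 4 members, and those of Rhox5, Rhox6 and Rhox9 are named only.

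Genes next to the cluster were compared to see whether the difference extended past it. Of 38 rows within 1 Mb of the outermost Rhox genes, 21 were tested. Limma called 2 of the 21 higher and 0 lower over the 5 days, against 13.2% and 5.75% of all genes tested, and 4 of the 21 had an unadjusted p below 0.05. The median log2 difference of the 21 was 0.18, and that of all genes tested 0.06. Gm9, a predicted gene 2.76 kb from the start of the cluster, had a log2 difference of 2.27 (SE 0.138, limma adjusted p 5.685e-11 in the fit of all rows). It had 0.142 and 0.0605 RPKM in WT and 1.17 and 1.04 RPKM in KO at day 17. Lonrf3, 852 kb from the cluster on the same side, had 0.90 (SE 0.122, limma adjusted p 1.226e-05 in that fit). Both exceeded 1 RPKM in fewer than 2 of the 15 WT libraries outside day 6 and so were tested through other libraries, and the count of 2 supports nothing. Without the filter, 4 of 35 flanking rows were called higher and 0 lower, against 14.1% and 4.85%. The nearest tested gene on the far side was Zbtb33, 59.8 kb away, which encodes Kaiso, a protein that binds methylated DNA. Its log2 difference was -0.12 (limma adjusted p 0.7797).

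Without the third day 1 pair, limma called 11 of the 21 flanking genes higher and 2 lower, against 37.8% and 20.7% of all genes tested. The libraries of that pair are of the high-share set, unlike the other day 1 libraries. The main fit counts this gap within day 1 as spread between replicates, which enters all its p-values and counts. With limma's voom on reads recovered from the RPKM values, 2 flanking genes were called higher and 0 lower, and the counts called in every gene list below were those given there. Over all rows with a read and without the filter, the median log2 difference was 0.12 for 35 flanking rows and 0.23 for 19 Rhox rows that were not members.

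**Figure D4:**
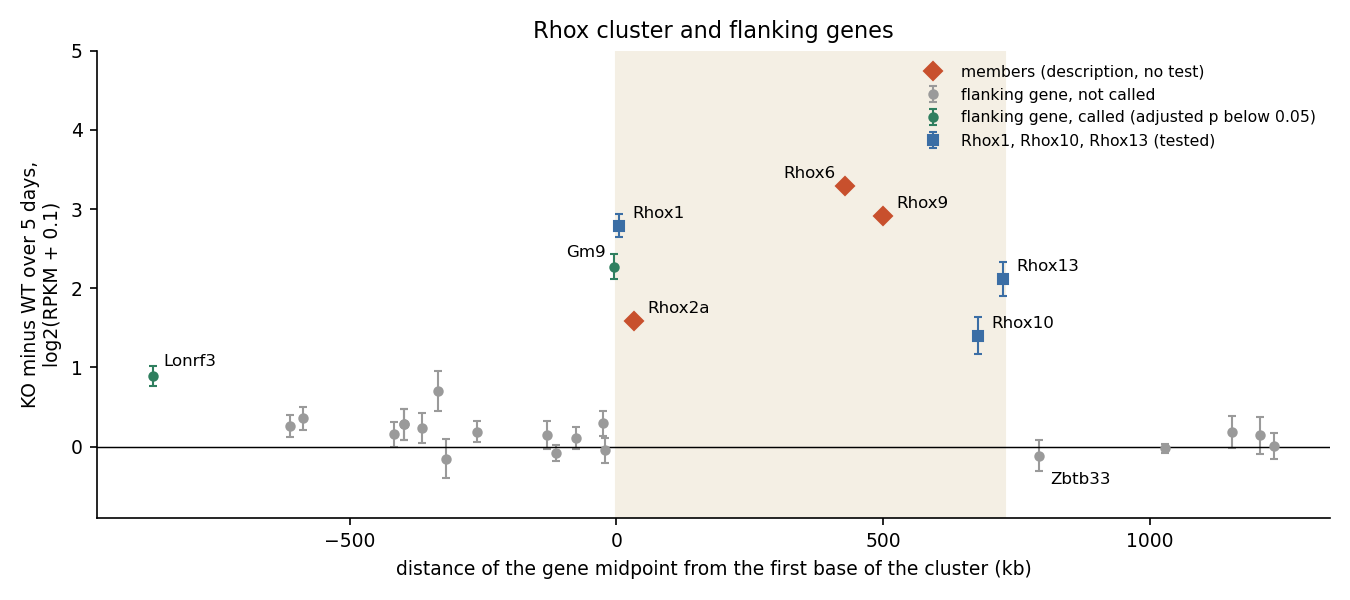
KO minus WT over days 3, 9, 11, 17 and 25 on the log2(RPKM + 0.1) scale for Rhox genes and tested genes within 1 Mb, by distance in kb of the gene's midpoint from the first base of the cluster (shaded); bars are limma standard errors, and the members carry none. Gm9 and Lonrf3 are the flanking genes called, at 2.27 and 0.90, and the other 19 lie between -0.15 and 0.70.

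Other germline genes are the usual company of Rhox genes among targets of methylation. Of 17 tested genes of a germline list, limma called 13 higher and 1 lower over the 5 days, with a median log2 difference of 1.06. Of the 17, 6 exceeded 1 RPKM in fewer than 2 WT libraries outside day 6, Fkbp6 and Asz1 among them. Without the filter 13 of 20 were called higher and 3 lower, with a median of 0.92. Fkbp6, a chaperone of the piRNA pathway, rose by 4.45 (SE 0.119, limma adjusted p 3.258e-17 without the filter). Asz1, a germ cell protein of the same pathway, rose by 2.75, Hormad1, a protein of the meiotic chromosome axis, by 2.18, and Dazl, an RNA-binding protein of germ cells, by 1.98. The gene called lower was Sycp3, a component of the synaptonemal complex, named after its value was seen (-1.22, limma adjusted p 3.384e-09). Of 11 tested X-linked germline genes, limma called 10 higher and 0 lower, with a median of 3.21, but 8 of the 11 exceeded 1 RPKM in fewer than 2 WT libraries outside day 6, so this count and median support nothing. Without the filter 22 of 23 were called higher and 0 lower, with a median of 1.5. Xlr3a (4.2), Xlr4a (3.84), Xlr3b (3.8) and Xlr3c (3.67) had the largest differences. They belong to a family of several copies expressed in lymphoid and germ cells. Their identity was not computed, and their reads may be divided uncertainly. Over all genes 13.2% were called higher and 5.75% lower, and without the filter 14.1% and 4.85%. Several of these genes were known from earlier results of the same libraries when the lists were made.

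Among 16 enzymes and cofactors of repression, limma called 0 higher and 3 lower over the 5 days, and 3 had an unadjusted p below 0.05, beside 13.2% of all genes tested higher and 5.75% lower. The 3 were Dnmt1 itself (-2.46, limma adjusted p 1.904e-12) and the de novo methyltransferases Dnmt3a (-0.65, limma adjusted p 0.01952) and Dnmt3b (-0.37, limma adjusted p 0.03948). Dnmt3l, their cofactor, had 0.31 (limma adjusted p 0.1789). Without the third day 1 pair 4 were called higher and 9 lower, beside 37.8% and 20.7% of all genes, and with the libraries of day 6 included as labelled 0 and 1.

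Markers of other cell types were examined because placental and endodermal cells can express Rhox genes. Of 8 tested trophoblast markers, limma called 7 higher and 0 lower over the 5 days, with a median of 1.12, beside 13.2% of all genes higher and 5.75% lower. Plac1, Hand1, Krt7 and Ascl2 exceeded 1 RPKM in fewer than 2 WT libraries outside day 6, so the count and median support nothing. Without the filter 10 of 15 were called higher and 0 lower, with a median of 0.57, beside 14.1% and 4.85% of all rows. Plac1, an X-linked placental gene, rose by 1.57 (limma adjusted p 3.611e-12 without the filter), Hand1, a transcription factor of trophoblast giant cells, by 1.44 (limma adjusted p 3.367e-07 without the filter), Krt8, a simple keratin, by 1.23 (limma adjusted p 0.0001645) and Krt7, another, by 1.15 (limma adjusted p 7.562e-11 without the filter). Eomes was not called (0.21, limma adjusted p 0.1043). Cdx2 and Gcm1, below the filter, are named after their values were seen. Cdx2 had 0.81 and 0.99 RPKM in WT and 0.16 and 0.014 RPKM in KO at day 25. At day 17 it had 0.22 and 0.16 RPKM in WT and 0.34 and 0.30 RPKM in KO. Gcm1 was likewise lower in KO at day 25 and higher in KO at day 17. The summed level of all 15 markers was between 12.3 and 72.9 RPKM in WT and between 12.7 and 312 RPKM in KO libraries outside day 6. In KO it was 120 and 148 RPKM at day 11, 303 and 312 RPKM at day 17 and 48.9 and 51.8 RPKM at day 25, and in WT 62.7 and 72.9 RPKM at day 17. The days at which the sum was highest in KO were thus those at which Rhox6 and Rhox9 were highest. Krt8 and Krt18, keratins of simple epithelia in general, made up 285 and 295 RPKM of the sum in KO at day 17, and the other 13 markers at most 18.4 RPKM, against 4.12 and 4.74 RPKM in WT. Tpbpa and Prl3d1, which define mature placental cells, were at 0 in every WT library. Tpbpa was also at 0 in KO at all days but 17, and Prl3d1 at all days but 11 and 17. At day 3, where Rhox6 was 6.2-fold higher in KO, the sum was 49.9 and 54.3 RPKM in KO and 27.1 and 30.8 RPKM in WT. At day 25, where Rhox6 was 8.75-fold higher, it was 46.4 and 46.9 RPKM in WT, close to KO. The part of such cells in the result was not tested.

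Of 8 tested primitive endoderm markers, limma called 3 higher and 0 lower over the 5 days, beside 13.2% and 5.75% of all genes. They were Col4a1 (0.92, limma adjusted p 0.001344), Sparc (0.73, limma adjusted p 9.756e-09) and Gata6 (0.30, limma adjusted p 0.01013), and Pdgfra had 0.18 (limma adjusted p 0.1964). The summed level of all 12 lay between 27 and 84.3 RPKM in WT and between 43.2 and 118 RPKM in KO outside day 6, and none of the 12 was at 0 throughout. At day 9 it was 46.8 and 52.7 RPKM in WT and 83.6 and 85.9 RPKM in KO, without overlap. Of 6 tested fibroblast markers, which feeder cells would carry, limma called Twist1 higher (0.52, limma adjusted p 0.0003056) and 0 lower. The values of Col3a1 (0.43), Col1a1 (0.42) and Fbn1 (0.36) did not pass. Their summed level over all 10 markers lay between 1.93 and 9.66 RPKM in WT and between 1.65 and 17.3 RPKM in KO outside day 6, and none was at 0 in all of either. The sums did not overlap at day 3, with 6.18 and 7.23 RPKM in WT and 11.39 and 11.42 RPKM in KO, or at day 9, with 8.30 and 9.66 RPKM in WT and 15.4 and 17.3 RPKM in KO. These are days at which Rhox6 and Rhox9 were higher in KO, and the part of such cells was not tested. Among 10 stem cell markers limma called Nanog higher (0.81, limma adjusted p 0.01577) and Utf1 lower (-0.60, limma adjusted p 0.001958). Zfp42 had 0.25 and Lin28a -0.31, and neither passed. Without the third day 1 pair, limma called 8 of the 8 trophoblast, 5 of the 8 endoderm and 5 of the 6 fibroblast markers higher, beside 37.8% of all genes tested.

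**Figure D5:**
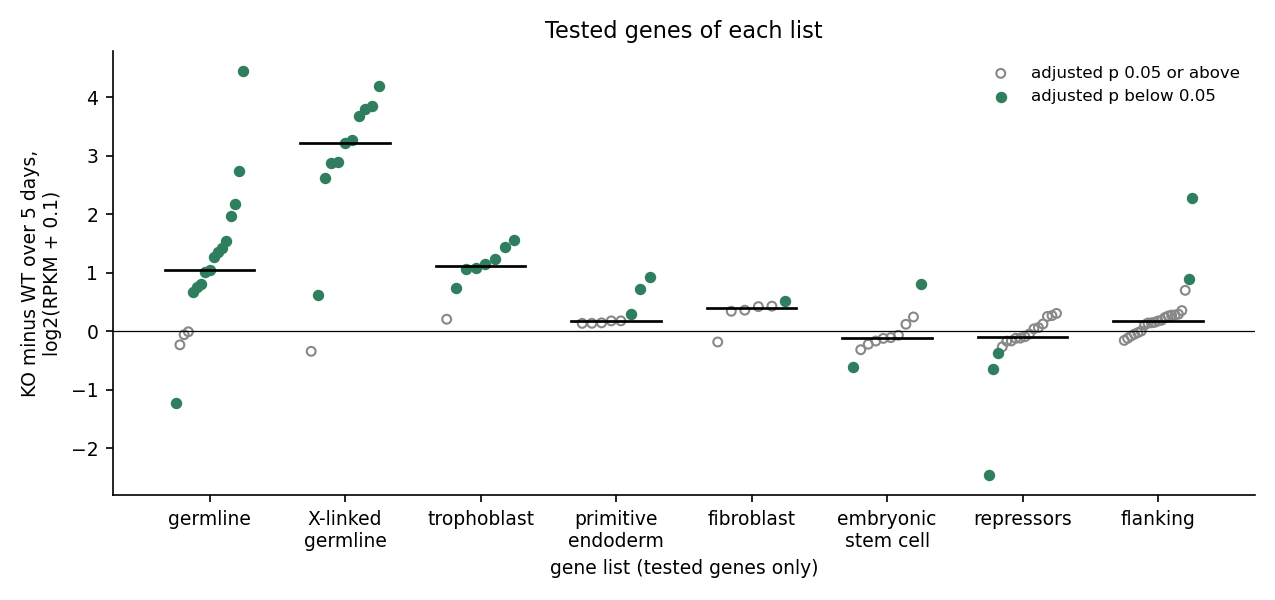
KO minus WT over days 3, 9, 11, 17 and 25 on the log2(RPKM + 0.1) scale for the tested genes of each list; filled points have a limma adjusted p below 0.05, and horizontal lines are list medians. The X-linked germline list has a median of 3.21, the trophoblast list 1.12 and the flanking genes 0.18; 8, 4 and 2 genes of these lists exceeded 1 RPKM in fewer than 2 WT libraries outside day 6.

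In the Dicer KO library Rhox6 and Rhox9 stood within or near the range of WT. As there was 1 such library, its values have no replicate check and no test. It had 1.61 RPKM of Rhox6 (42 reads), against 0.560 to 2.91 RPKM with a median of 1.1 in the 7 high-share WT libraries. It had 1.02 RPKM of Rhox9 (68 reads), against 0.128 to 1.03 RPKM with a median of 0.492. The log2 difference from the mean of these WT libraries was 0.34 for Rhox6, 1.08 for Rhox9 and 0.62 for the sum. Over all genes tested, 14.6% were more than 1 above and 9.30% more than 1 below that mean. Rhox2a had 0 reads, as in WT, and Rhox1 and Rhox10 had 0 reads and Rhox13 had 1. Dicer1 RNA was 4.01 RPKM, within the range of WT at days 11, 17 and 25 (3.9 to 8.57 RPKM), and Dnmt1 RNA was 34.8 RPKM. The summed fibroblast markers were 43.1 RPKM in this library, against 1.93 to 3.97 RPKM in the high-share WT libraries, the summed trophoblast markers 130.6 RPKM against 37.7 to 72.9 RPKM, and the summed primitive endoderm markers 160.6 RPKM against 27 to 65.7 RPKM. Their part in the values was not tested.

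Genes whose levels ran most like those of Rhox6 and Rhox9 were sought over the 34 WT and KO libraries by Pearson r of log2(RPKM + 0.1). The r is a description, since the libraries share genotype, day and gene-read share. For both genes and for their sum Klhl13, an X-linked adaptor of a ubiquitin ligase, came first (r = 0.970, 0.978 and 0.974), followed by Cox7b2, a testis form of a respiratory chain subunit (r = 0.968, 0.956 and 0.970). Klhl13 had 20.8 and 21.2 RPKM in WT and 157 and 156 RPKM in KO at day 17, and 5.64 and 6.35 RPKM in WT and 36.7 and 35.4 RPKM in KO at day 25. Cox7b2 had 1.74 and 1.73 RPKM in WT and 20.2 and 18 RPKM in KO at day 17. Slc38a6, Wnt7b and Smtnl1 completed the first 5 for Rhox6 (r from 0.948 to 0.953), and Smtnl1, Wnt7b and Psd4 those for Rhox9 (r from 0.944 to 0.95). Rhox6 and Rhox9 had an r of 0.979 with each other.

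Rhox2a was most like another set of genes, but it had reads in only 11 libraries. Its r thus partly reflects which genes were also near 0 in the other libraries. Xlr5a (r = 0.970), Xlr4a (r = 0.956), Asz1 (r = 0.953), Xlr3a (r = 0.95) and Rcsd1 (r = 0.946) led its list over the same 34 libraries. Outside day 6, Rhox2a had 0 RPKM in all WT libraries and Xlr5a in all but 1. Xlr5a had 1.79 and 1.35 RPKM in KO at day 11. Rhox2a had an r of 0.851 with Rhox6 and 0.842 with Rhox9, and 0.922 with Rhox1.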

How the data were processed

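Total RNA was measured in 35 libraries of mouse ESCs. The authors trimmed reads with Trim Galore 0.3.5, aligned them to NCBIM37 with TopHat2 2.0.11, discarded reads with a mapping quality under 20 and quantified genes in SeqMonk. The deposited values are linear RPKM per gene, and no column was left unmatched. The members and all gene lists were chosen with earlier results of these data known.

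Multiplying RPKM by exon lengths of the GENCODE vM1 annotation gave whole reads (within 0.1) for between 99.5% and 99.7% of values below 20 reads, and so the depth. Libraries had between 24.3 and 72.1 M (mega) reads, of which between 5.20 and 18.0 M fell in exons of genes. Depth limits low genes: 3 reads were taken as the floor. No pair of replicates was identical or within counting noise (chi-square per gene at least 1.31). It was 1.31 to 2.05 for the low-share pairs, but 40.6 for KO at day 11 and 13.6 for WT at day 17.

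A model of group means over 34 libraries was fitted with limma 3.58.1 (R 4.3.3; lmFit, eBayes with a trend) to log2(RPKM + 0.1) of 11615 genes above 1 RPKM in at least 2 libraries, and genes with an adjusted p below 0.05 were called. Genes that passed this filter only through KO libraries were read from a fit of all 22909 rows with a read, a choice made after the values were seen. That fit does not undo their choice by the filter, so their p-values are a description. The members' KO minus WT values carry no test. Named genes are the members, other tested Rhox genes, the 5 genes most like each member, flanking genes that were nearest or called, up to 4 of each list by size of difference, Dnmt1 and Dicer1. Listed genes under older symbols were found by their RefSeq synonyms (GRCm38.p6). Exonic stretches were searched for on chromosome X of NCBIM37 with Python 3.11.15. Alternatives changed the pseudocount, filter, centring, libraries and covariates, and limma's voom was run on the recovered reads. The limma fit was tested on simulated data.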

Additional observations from a re-analysis of the deposited data

Results flagged for a closer look

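Every Rhox gene followed here went the opposite way at day 6. On the log2(RPKM + 0.1) scale the libraries labelled KO minus those labelled WT gave -3.36 for Rhox6, -3.06 for Rhox9, -3.51 for their sum, -1.03 for Rhox2a, -2.79 for Rhox1, -0.99 for Rhox10 and -1.71 for Rhox13. At day 6 both libraries labelled KO lay below both labelled WT. KO lay above WT at days 9, 11, 17 and 25 for each of these genes and the sum, and at day 3 for Rhox6, Rhox9, their sum and Rhox1. For Rhox10 this rests on few reads. At day 11 its second KO library had 1 read (0.0351 RPKM) and its first WT library 1 read (0.0327 RPKM). At day 9 Rhox10 had 5 and 3 reads in KO and 5 and 0 in WT. Over all genes tested, KO lay above WT for 31.9% to 49.5% on a single one of these days, and libraries labelled KO lay below those labelled WT at day 6 for 41.2%. Rhox1, Rhox10 and Rhox13 passed the filter only through libraries in which they were high. The difference between day 6 and the other days was not tested. In the same libraries Dnmt1 had 3.22 and 3.40 RPKM where labelled WT and 20.2 and 20.4 RPKM where labelled KO.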

How the results depend on the processing

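Over days 3, 9, 11, 17 and 25, the differences of all members kept their direction under each alternative. A pseudocount of 1 gave 0.32 for Rhox2a, 2.46 for Rhox6, 1.62 for Rhox9 and 2.59 for the sum, one of 0.01 gave 3.91 for Rhox2a and 3.36 for Rhox9, and including day 6 as labelled gave 1.15, 2.19, 1.92 and 2.17. Leaving out 1 library at a time gave 1.53 to 1.65 for Rhox2a, 3.25 to 3.34 for Rhox6, 2.87 to 2.96 for Rhox9 and 3.27 to 3.36 for the sum.

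Counts called moved more. Without the third day 1 pair 4385 genes were higher and 2400 lower, with gene-read share as covariate 4349 and 2370, with only the 5 days 4049 and 2109, without the filter 3240 and 1110, with the strict filter 895 higher, with centring 2248 lower and with day 6 included 275 lower. Of the lists, in the order of these settings: without the pair, flanking 11 and 2, germline 2 lower, X-linked germline 1 lower, repressors 4 and 9, primitive endoderm 5 higher, stem cell 3 and 6 and fibroblast 5 higher; the covariate gave the same counts except for 5 stem cell genes lower. With only the 5 days, flanking 10 higher, germline 2 lower, X-linked germline 1 lower, repressors 4 and 7, stem cell 3 and 2 and fibroblast 5 higher. Without the filter, other Rhox 9 of 19, flanking 4 of 35, X-linked germline 22 of 23 and primitive endoderm 6 of 12 higher. In that setting fibroblast 2 of 10 were higher and germline 3 of 20 lower, against 14.1% higher and 4.85% lower of all rows. With the strict filter, which tests fewer genes, germline 5 of 8, X-linked germline 2 of 2 and trophoblast 3 of 3 higher. Flanking 0 of 15 and fibroblast 0 of 3 were higher there, beside 895 of 8860 genes tested. With centring, flanking 6 and 1, X-linked germline 1 lower, repressors 3 and 7 and stem cell 2 and 4. With day 6, repressors 1 lower and stem cell 0 higher. The main fit holds the gap between the third day 1 pair and the other day 1 libraries as spread between replicates. The fits without the pair, with the covariate and with only the 5 days do not. How far this accounts for the moved counts was not tested.

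Leaving out 1 library gave 1329 to 1499 genes higher and 506 to 865 lower, flanking 2 to 2 higher and 0 to 0 lower, and repressors 2 to 3 lower. The replicate numbers of the titles did not pair the samples: same-numbered deviations correlated between -0.16 and 0.26 outside day 1. The replicate block gave 4284 genes higher and 2374 lower, flanking 12 and 2, germline 2 lower, X-linked germline 1 lower, repressors 4 and 9, primitive endoderm 5 higher, stem cell 2 and 4 and fibroblast 5 higher. Without the third pair, an alternative chosen after seeing the data, the day 1 difference was -0.08 for Rhox6, 0.32 for Rhox9 and 0.11 for the sum. Depth limits Rhox2a, with at most 17 reads in a library.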
